A study of Mus musculus with 2 samples.

Results

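The genes described here are those of MHC class II and antigen presentation, 10 in all: Ciita, Cd74, H2-Aa, H2-Ab1, H2-Eb1, H2-DMa, B2m, Tap1, Tap2 and Tapbp. They were chosen by gene symbol in the array platform's probe annotation, and 7 of the 10 had a probe named for them, each with 1 probe, among 16390 named genes. Ciita was listed under its older symbol C2ta, and H2-Aa as H2Aa, an alias that RefSeq gives to no other gene. H2-Ab1, H2-Eb1 and H2-DMa were not analysed here.

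The 3 sorted populations of mouse small intestinal epithelium were measured on 2 two-colour arrays. All cells came from mice with the alleles Atoh1-crePGR, Lgr5-EGFP-IRES-creERT2 and Rosa26-tdTomato, in which EGFP at the Lgr5 locus marks stem cells of the crypt base, while a Cre driven by Atoh1, the secretory lineage factor, switches on tdTomato in a cell and all its progeny. RU486, which activates this Cre, was injected on 5 consecutive days, and cells pooled from 4 mice were sorted 20 days after recombination; the strain and age of the mice are not given in the sources used here. EGFP+ve/tdTomato-ve cells (EGFP only) are Lgr5 cells with no recorded Atoh1 history, EGFP+ve/tdTomato+ve cells (double positive) are Lgr5 cells with an Atoh1-expressing ancestor, and EGFP-ve/tdTomato+ve cells (tdTomato only) are the other descendants. Cy5 always marked the EGFP-only RNA, beside double-positive RNA in Cy3 on the first and tdTomato-only RNA in Cy3 on the second. Each population was 1 pooled sort, so ratios are given without a replicate error or p-value, and a dye effect of a single probe cannot be told apart from a difference to the EGFP-only cells.

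MHC class II molecules carry peptides from the endosomal pathway to CD4 T cells, and intestinal epithelial cells, crypt stem cells among them, are known to make them. Ciita is the coactivator that switches class II genes on by joining the RFX, CREB and NF-Y factors at their promoters. Cd74, the invariant chain, escorts the class II alpha and beta chains, of which H2-Aa is an alpha chain, to the compartment where peptides are loaded. MHC class I molecules need B2m as their light chain, the Tap1 and Tap2 transporter to bring peptides into the endoplasmic reticulum, and Tapbp (tapasin) to hold the empty molecule at that transporter.

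The promoters of the 4 genes that had both a probe and a RefSeq promoter sequence (GRCm38.p6) are shown, since class II genes and B2m are known to share an arrangement of binding sites that the Ciita coactivator acts through. Each runs 5′ to 3′ on the gene's strand from 250 bases before the start to 50 after it: H2-Aa at chr17:34287774-34288073 (minus strand), B2m at chr2:122147437-122147736 (plus), Tap1 at chr17:34187306-34187605 (plus) and Tapbp at chr17:33919228-33919527 (plus). Capitals mark matches on either strand to the NF-Y box CCAAT, to the core of the X2 box TGACG, to the interferon-stimulated response element and to the gamma-activated site TTCNNNGAA.
H2-Aa: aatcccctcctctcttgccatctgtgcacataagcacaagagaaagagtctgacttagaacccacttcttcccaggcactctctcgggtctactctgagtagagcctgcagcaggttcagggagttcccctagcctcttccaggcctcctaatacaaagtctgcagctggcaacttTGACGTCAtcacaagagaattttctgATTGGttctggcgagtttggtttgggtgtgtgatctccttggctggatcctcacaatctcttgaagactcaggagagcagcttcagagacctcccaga
B2m: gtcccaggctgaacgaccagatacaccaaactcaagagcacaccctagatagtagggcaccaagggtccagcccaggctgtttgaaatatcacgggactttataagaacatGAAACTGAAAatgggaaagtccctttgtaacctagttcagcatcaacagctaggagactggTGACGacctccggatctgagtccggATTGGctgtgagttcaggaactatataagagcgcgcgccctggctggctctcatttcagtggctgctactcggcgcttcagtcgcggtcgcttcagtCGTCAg
Tap1: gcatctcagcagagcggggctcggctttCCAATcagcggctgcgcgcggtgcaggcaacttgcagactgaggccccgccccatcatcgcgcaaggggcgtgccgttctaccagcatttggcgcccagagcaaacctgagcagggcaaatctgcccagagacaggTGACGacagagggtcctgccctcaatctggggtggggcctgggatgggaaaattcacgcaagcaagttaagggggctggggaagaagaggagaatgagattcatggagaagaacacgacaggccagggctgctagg
Tapbp: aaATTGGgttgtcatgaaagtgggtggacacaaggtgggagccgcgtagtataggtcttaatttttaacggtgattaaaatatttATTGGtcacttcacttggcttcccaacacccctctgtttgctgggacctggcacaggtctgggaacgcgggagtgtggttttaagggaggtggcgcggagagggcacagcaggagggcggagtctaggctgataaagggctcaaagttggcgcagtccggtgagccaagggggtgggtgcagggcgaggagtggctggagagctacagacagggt

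In H2-Aa a TGACG starting at position -74 was followed by an inverted CCAAT box (ATTGG) at -48, a distance of 26 bases from start to start. B2m had the same order, with TGACG at -78 and ATTGG at -53, 25 bases apart. A TGACG followed by ATTGG within 30 bases stood in 0.399% of 32851 RefSeq promoters of 300 bases, and Tap1 and Tapbp did not hold that pair in this window. Nor did the promoters of the class II genes H2-Eb1 and H2-DMa in the table, so the pair in these letters was not common to the class II genes listed. A CCAAT box alone stood in 37.4% of those promoters, TGACG in 20.8%, the interferon-stimulated response element in 3.44% and TTCNNNGAA in 8.3%. B2m also held the interferon-stimulated response element at -139, and none of the 4 held TTCNNNGAA. In H2-Aa the matches to TGACG on the plus and minus strands overlap in 1 palindrome. These matches describe letters in the window and are no measurement of binding.

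Ciita stood apart from the other members, which lay within 2-fold of the EGFP-only level. Its spot read 279 in the EGFP-only channel of the first array and 263 in that of the second, against 2553 in the double-positive channel and 1785 in the tdTomato-only channel. The EGFP-only values were the low ones on both arrays, and lay above the background limit, the mean of the blank spots plus 2 SD, which was between 74.1 and 85.4 in the 4 channels. After normalization Ciita was 14.7-fold higher in double-positive than in EGFP-only cells (log2 ratio 3.87), the 32nd highest of 11774 genes above background. In tdTomato-only cells it was 10.01-fold higher (log2 ratio 3.32), the 53rd highest of 11381. Between these populations it was 1.46-fold lower in tdTomato-only cells (log2 difference -0.55). It was the only member at least 2-fold from the EGFP-only level in either direction, 1 of 7. Over all genes this was 5.44% in double-positive cells, with 5.1% higher, and 7.34% in tdTomato-only cells, with 6.15% higher. In each of these comparisons 4 of 7 members lay above 0, where 48.9% and 48.2% of all genes did. Which Ciita transcript the probe reads was not analysed here. In pooled RNA a difference in the number of cells of a type and a difference in RNA per cell cannot be told apart.

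The class II genes that Ciita is known to switch on were not higher with it. Cd74, with spots of 6757 and 6707 in the EGFP-only channels, read 3106 in the double-positive and 2566 in the tdTomato-only channel. Its normalized level was 1.16-fold lower in double-positive cells (log2 ratio -0.21) and 1.55-fold lower in tdTomato-only cells (-0.63). EGFP-only cells had the highest Cd74 level and tdTomato-only cells the lowest. H2-Aa read 5899 and 5448 in the EGFP-only channels, 2558 in the double-positive and 2055 in the tdTomato-only channel. It was 1.25-fold lower in double-positive cells (-0.33) and 1.61-fold lower in tdTomato-only cells (-0.69), the same order as for Cd74.

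Neither gene passed 2-fold, and 0 of 7 members were at least 2-fold lower, against 0.34% of genes in double-positive and 1.19% in tdTomato-only cells. With the array's log2 ratios centred on their median in place of the intensity-dependent loess curve, both did, at -1.07 and -1.15 in double-positive and -1.39 and -1.41 in tdTomato-only cells. The authors' deposited ratios gave -0.66 and -0.75 for Cd74 and H2-Aa in double-positive cells and -1.11 and -1.14 in tdTomato-only cells. Both genes lay below 0 in each of the 8 settings tried, in all 3 comparisons; 2 of the 7 alternatives, the stricter background limit and the brightest probe, left every member's value as it was. Within an array the log2 ratio of Ciita exceeded that of Cd74 by 4.08 in double-positive and 3.96 in tdTomato-only cells, and that of H2-Aa by 4.20 and 4.01. Cd74 and H2-Aa differed from each other by 0.12 and 0.06.

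**Figure D1:**
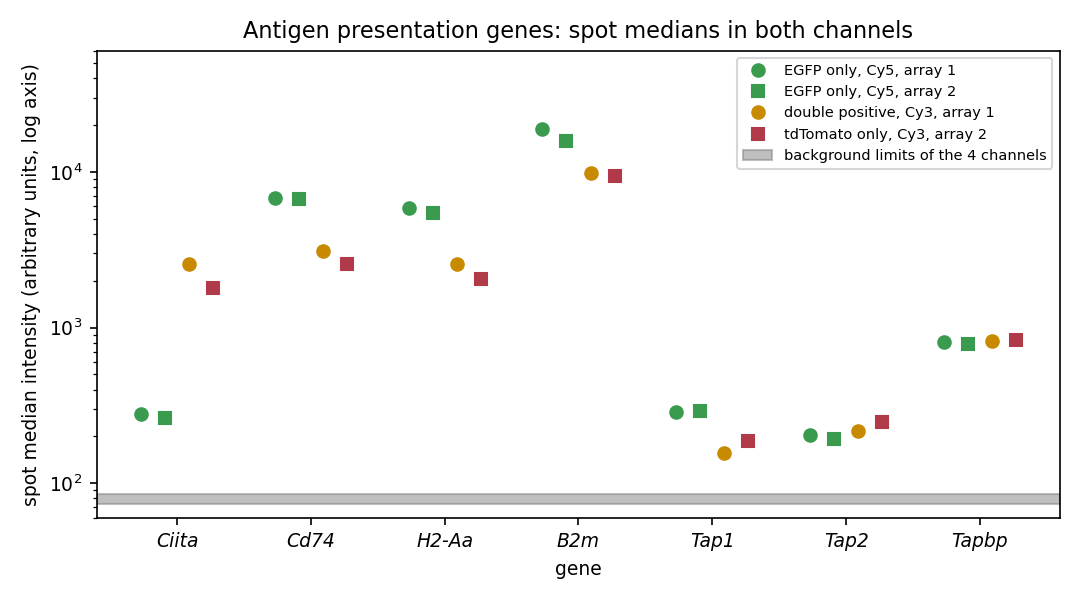
Spot median intensity (arbitrary units, log axis) of each measured antigen presentation gene, with EGFP-only cells (Cy5) in green on both arrays, double-positive cells (Cy3, array 1) in ochre and tdTomato-only cells (Cy3, array 2) in red. The grey band spans the background limits of the 4 channels, 74.1 to 85.4; Ciita rises from 279 and 263 to 2553 and 1785, while the EGFP-only and Cy3 spots of the other genes lie much closer together. Dyes are not yet normalized here, and heights of different genes are not comparable.

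B2m, the class I light chain, had no settled direction against EGFP-only cells. It read 18963 and 15683 in the EGFP-only channels, 9905 in the double-positive and 9418 in the tdTomato-only channel. Its log2 ratios were 0.19 in double-positive and 0.20 in tdTomato-only cells, and the authors' deposited ratios turned them to -0.46 and -0.44, median centring to -0.88 and -0.73. The EGFP-only spots of B2m themselves differed by -0.27 on the log2 scale between the arrays, more than for 98.6% of 15644 probes, whose differences had an SD of 0.088. The difference between tdTomato-only and double-positive cells was 0.01, with a range over the settings of 0.01 to 0.20.

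The transporter genes lay on opposite sides of 0, both within 2-fold. Tap1 read 288 and 293 in the EGFP-only channels, 156 in the double-positive and 187 in the tdTomato-only channel. It was 1.57-fold lower in double-positive cells (log2 ratio -0.65) and 1.34-fold lower in tdTomato-only cells (-0.42). Tap2 read 203 and 192 in the EGFP-only channels, 216 in the double-positive and 248 in the tdTomato-only channel. It was 1.34-fold higher in double-positive cells (0.43) and 1.59-fold higher in tdTomato-only cells (0.67). The log2 ratio of Tap2 exceeded that of Tap1 by 1.08 in double-positive and 1.09 in tdTomato-only cells, and by at least 1.08 and 1.09 under the other settings. Tap1 was below 0 and Tap2 above 0 in all 8 settings; the deposited ratio of Tap1 in double-positive cells, -1.01, was past 2-fold.

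Tapbp, tapasin, read 809 and 783 in the EGFP-only channels, 823 in the double-positive and 829 in the tdTomato-only channel. Its log2 ratios were 0.62 in double-positive and 0.59 in tdTomato-only cells, and median centring brought them down to 0.07 and 0.07. Tap1, Tap2 and Tapbp, partners in the peptide-loading complex, did not share a direction against EGFP-only cells, and none passed 2-fold.

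Across the populations, Ciita was ordered double positive, tdTomato only, EGFP only from high to low, and Cd74 and H2-Aa EGFP only, double positive, tdTomato only. Tap1 was ordered EGFP only, tdTomato only, double positive, and Tap2 tdTomato only, double positive, EGFP only. These orders were the same in all 8 settings. For Tapbp the double-positive and tdTomato-only levels differed by 0.04 on the log2 scale, and for B2m by 0.01. The EGFP-only spots alone differed between the arrays with an SD of 0.088 over 15644 probes, which leaves out the noise of the Cy3 channels. The third comparison placed 0 of 7 members past 2-fold in either direction, against 0.813% of 11311 genes higher and 0.274% lower. The first 2 comparisons share the EGFP-only population, so their ratios are not independent.

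**Figure D2:**
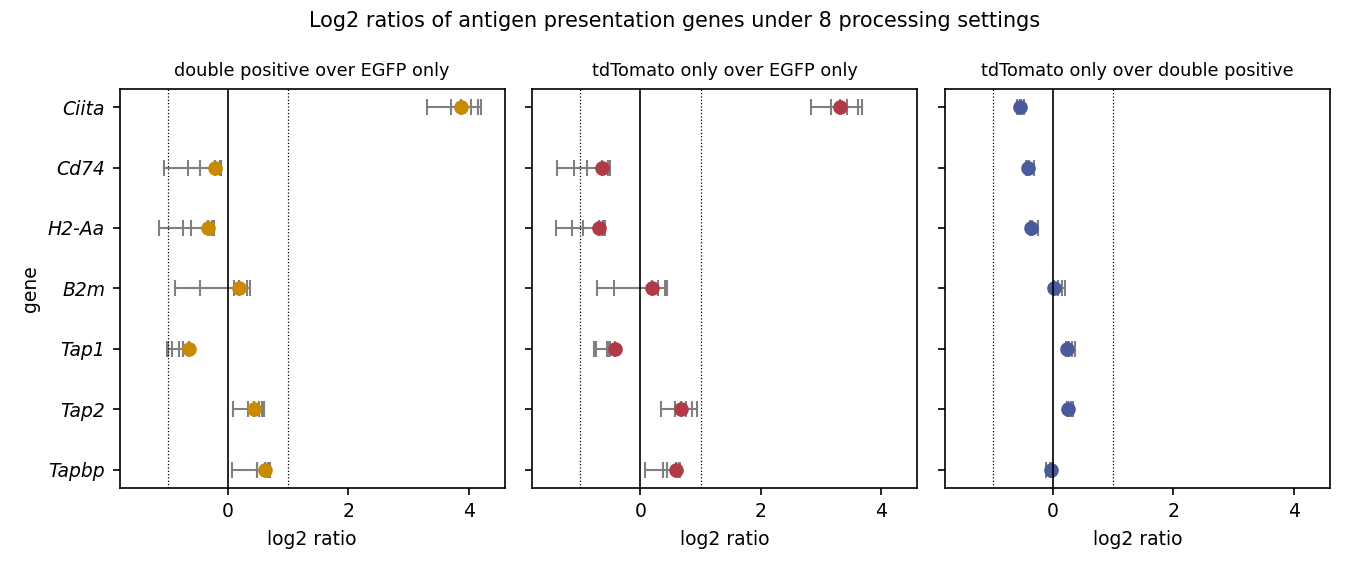
Log2 ratios of the 7 measured genes in the 3 comparisons, with the reported value as a filled point and the 7 alternative settings as grey ticks joined by a line; dotted lines mark 2-fold. Ciita stays between 2.83 and 4.21 against EGFP-only cells, Cd74 and H2-Aa lie left of 0 in every panel, and B2m crosses 0 in both comparisons with EGFP-only cells.

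By distance over the first 2 log2 ratios, the 5 genes most like Cd74 among 11311 were Smad4, Cep68, Ung, Ddx21 and Trim24, all within 0.03 of it. The 5 most like B2m were H1f10, Ndufa2, Bnip3l, Tbck and Tnip1, within 0.01. Such patterns were common: 578 genes lay within 0.25 of Cd74, 611 of H2-Aa and 2590 of B2m. Only 4 genes lay that near to Ciita, namely Tmed6, Myf6, Asb16 and the Paneth cell defensin gene Defa5, at distances of 0.09 to 0.24. These 4 were named after their values were seen. Few genes have ratios as far from 0 as Ciita, so few can lie near it.

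**Figure D3:**
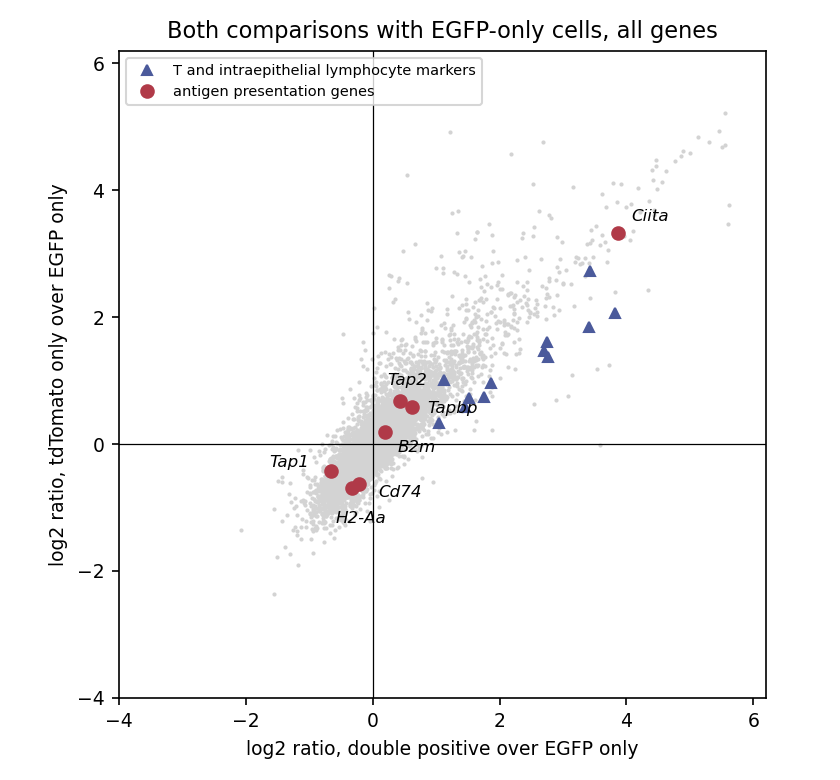
Log2 ratio in tdTomato-only cells (y axis) against that in double-positive cells (x axis), both over EGFP-only cells, for all genes above background (grey), the antigen presentation genes (red) and T and intraepithelial lymphocyte markers (blue triangles). The axes share the EGFP-only reference, so the diagonal spread is partly built in; Ciita lies at 3.87 and 3.32, far from the other antigen presentation genes, which lie between -0.69 and 0.67.

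Of the genes that serve class II molecules after they are made, 5 of 13 listed were measured. Lgmn, the asparaginyl endopeptidase legumain, was 5.33-fold higher in double-positive and 4.66-fold higher in tdTomato-only cells. Its spots read 268 and 222 in the EGFP-only channels, 953 in the double-positive and 736 in the tdTomato-only channel, so both Cy3 values were the high ones. Ctsl, the protease cathepsin L, had log2 ratios of 1.33 and 0.96. The other 3 lay within 2-fold. Ctss, the cathepsin that trims the invariant chain in professional antigen-presenting cells, had -0.38 and -0.32. Ifi30, the lysosomal thiol reductase that unfolds antigens, had -0.52 and -0.25, and Ctsb, cathepsin B, 0.05 and -0.09. The list's median was 0.05 in double-positive and -0.09 in tdTomato-only cells, against -0.01 and -0.01 over all genes.

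The factors that Ciita joins on class II promoters were all measured, 7 of 7, and none was at least 2-fold apart. Over all genes 5.44% were in double-positive and 7.34% in tdTomato-only cells, so few or none would be looked for among 7. The RFX subunit genes Rfx5, Rfxap and Rfxank had log2 ratios of 0.17, -0.21 and 0.43 in double-positive cells and -0.01, -0.21 and 0.63 in tdTomato-only cells. The Rfx5 spots, at most 94.5, lay just above the background limits, and its deposited ratio in double-positive cells was 1.25. Nfya, a subunit of NF-Y, had the lowest ratio of the list in tdTomato-only cells, -0.82, and -1.43 in the authors' deposited ratios, and stood at -0.35 in double-positive cells. Nfyb and Nfyc stood at -0.03 and -0.24 in double-positive and -0.09 and -0.17 in tdTomato-only cells, and Creb1 at -0.01 and 0.00. Rfx5, Nfyb and Creb1 were named for completeness after their values were seen.

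Of 21 listed heavy chain and class I-like genes, 5 had a probe named for them and 4 were above background. The probe annotation used here holds no symbol with a hyphen, and 6842 probes have no name in it. The classical heavy chains, such as H2-K1 and H2-D1, and all other listed H2 genes of this group were therefore not analysed here, and the 5 are class I-like genes. The lipid-presenting gene Cd1d1 had a log2 ratio of -0.52 in tdTomato-only cells, and -1.17 in the authors' deposited ratios, beside -0.01 in double-positive cells. Fcgrt, the neonatal Fc receptor, had -0.25 in double-positive and 0.21 in tdTomato-only cells. Hfe (0.04 and 0.02) and Cd1d2 (-0.07 and -0.11) lay near 0, and Mr1 was not above background in any channel.

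Of the genes that supply and load class I peptides, 13 of 15 were measured, with medians of -0.03 and -0.02. None was at least 2-fold apart in either comparison, against 5.44% and 7.34% of all genes. The immunoproteasome subunit genes Psmb8, Psmb9 and Psmb10 lay at -0.39, -0.30 and -0.49 in double-positive cells and at -0.07, -0.13 and 0.09 in tdTomato-only cells; the EGFP-only spots of Psmb10 differed by 0.74 between the arrays. Pdia3, the disulfide isomerase of the loading complex, had the highest ratios, 0.69 and 0.88. Canx, the chaperone calnexin, stood at 0.53 and 0.15, and Thop1, a cytosolic peptidase, at -0.43 and -0.71. Nlrc5, the class I counterpart of Ciita, had -0.19 and -0.21 from spots of 89.3 to 97.2, near the background limits. Psmb9, Tap1, Psmb8 and Tap2 are 4 consecutive genes in GRCm38.p6, and in double-positive cells the first 3 lay at -0.30, -0.65 and -0.39 while Tap2 lay at 0.43. Psmb8, Psmb9 and Nlrc5 were named for their roles after their values were seen.

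Several genes of interferon signalling and response were higher in tdTomato-only than in EGFP-only cells. Of 46 listed genes, 36 were measured in double-positive cells with 1 at least 2-fold higher, against 5.1% of all genes. In tdTomato-only cells 37 were measured with 7 at least 2-fold higher, against 6.15% of all genes. Ido1, the tryptophan-degrading enzyme, was 31.8-fold higher in tdTomato-only cells, with a spot of 1775 beside 88.2 in the EGFP-only channel. That fold depends on the dim spot: the log2 ratio was 4.99, against 6.91 after blank subtraction and 6.72 in the authors' deposited ratios, and the EGFP-only spots differed by 0.325 on the log2 scale between the arrays. In double-positive cells it read 116, and 72.9 in the EGFP-only channel there was not above background, so that it was at least 1.65-fold higher. The authors' deposited log2 ratio of Ido1 in double-positive cells was 3.51. Gbp5, a guanylate-binding protein gene, had 1.80 in double-positive and 1.63 in tdTomato-only cells, and 2.42 and 2.12 in the authors' deposited ratios. Oas1a (1.75), Irf7 (1.35), Rsad2 (1.33), Stat2 (1.21) and Gbp2 (1.08) were the others past 2-fold in tdTomato-only cells, with Gbp2 at 2.28 in the authors' deposited ratios, and in double-positive cells these had 0.83, 0.36, 0.44, 0.76 and 0.14. The count of 7 became 13 in the authors' deposited ratios, 12 with the blank mean subtracted and 4 with median centring. Jak1, a kinase of the interferon receptors, had 0.95 in double-positive and 0.79 in tdTomato-only cells, and Ifitm3, an antiviral membrane protein gene, was lowest in tdTomato-only cells at -0.88. Interferon gamma is a known inducer of Ciita. Listed genes of the route from interferon gamma to Ciita, named for their role after their values were seen, lay within 2-fold and on both sides of 0. The receptor genes Ifngr1 and Ifngr2 had -0.45 and -0.33 in double-positive and -0.06 and -0.08 in tdTomato-only cells. The receptor kinase gene Jak2 had 0.57 and 0.76, above 0 like Jak1, and the transcription factor gene Irf1 had -0.01 and 0.11. Among response genes of the list within 2-fold in tdTomato-only cells were Gbp4 (0.44), Irgm1 (0.11) and Iigp1 (-0.15), also named after their values were seen. The list's median was 0.19 in double-positive and 0.30 in tdTomato-only cells. The part of interferon in the Ciita ratio was not tested.

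Costimulatory and checkpoint ligands, which professional antigen-presenting cells show to T cells, were covered by few measurable probes. Of 10 listed, 9 had a probe and 4 were above background. No gene passed 2-fold, against 5.44% and 7.34% of all genes. Cd40 had -0.20 and -0.16, Cd276 0.41 and 0.29, Icam1 -0.22 and -0.03, and Tnfsf9 0.02 and 0.03. Cd86, Icosl, Pdcd1lg2 and Tnfsf4 were not above background in any channel, and Cd70 was above it in the double-positive channel alone, at least 1.03-fold higher.

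**Figure D4:**
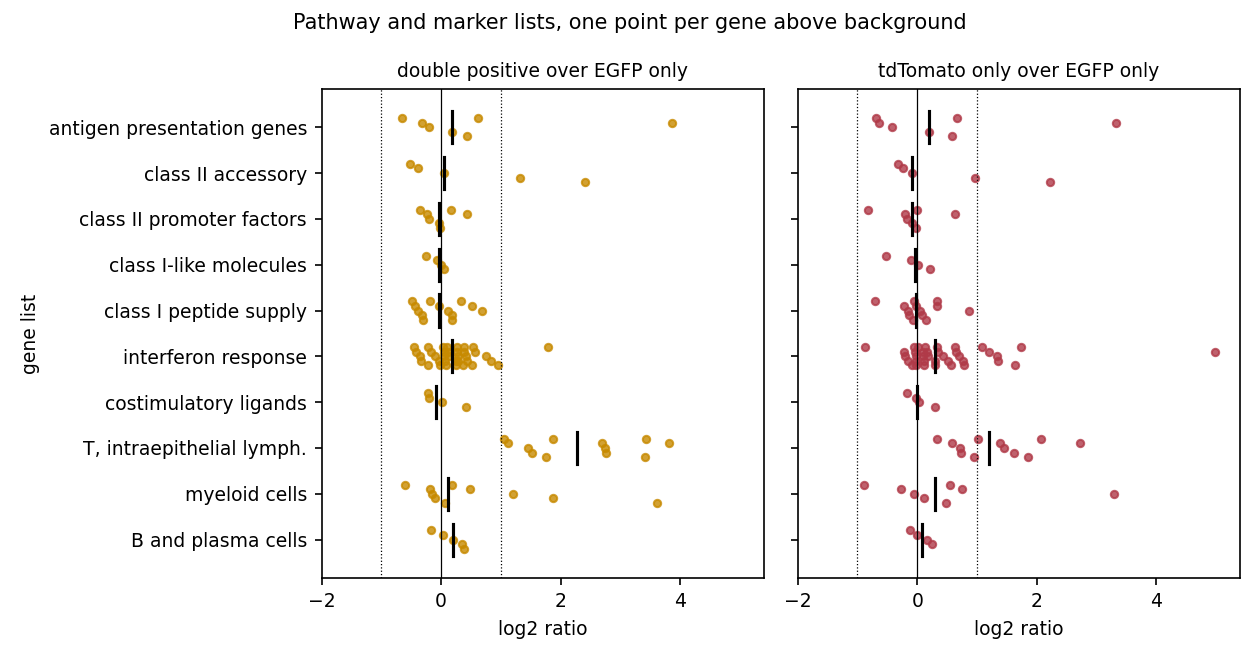
Log2 ratio of each gene above background in the pathway and marker lists, in double-positive (left) and tdTomato-only cells (right) over EGFP-only cells; black bars are list medians and dotted lines mark 2-fold. T and intraepithelial lymphocyte markers have medians of 2.28 and 1.20, the pathway lists have medians between -0.09 and 0.30, and Ciita (3.87 and 3.32) and Ido1 (4.99, right) stand alone at the right of their rows.

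Some immune cells, the professional antigen-presenting cells, carry class II genes and Ciita as well. Markers of several immune cell types, T cells among them, are given beside these results, whether or not the type carries these genes. All 12 measured markers of T and intraepithelial lymphocytes were at least 2-fold higher in double-positive cells, with a median of 2.28, and 7 of 12 in tdTomato-only cells. The shares of all genes at least 2-fold higher were 5.1% and 6.15%. The 12 became 10 with median centring and 11 with quantile normalization, and the 7 ranged from 6 with either of these to 12 with the blank mean subtracted, while all 12 stayed above 0. The authors' deposited ratios placed 14 of 14 and 13 of 13 past 2-fold, at medians of 3.36 and 1.99. The summed intensity above the blanks over the 15 probes of that list was 1694 and 1615 in the EGFP-only channels, 13100 in the double-positive and 5767 in the tdTomato-only channel. Gzma (3.82 and 2.07), Gzmb (3.43 and 2.73) and Ccl5 (3.41 and 1.85) were highest, Ptprc, the pan-leukocyte gene, had 1.46 and 0.59, and Cd3g 2.70 and 1.46, while the probe of Cd3e was not above background in any channel. Of dendritic cell, macrophage and other myeloid markers, 10 were measured in double-positive cells with 3 at least 2-fold higher, and 8 in tdTomato-only cells with 1. C1qb (3.62 and 3.30), Fcer1g (1.88 and 0.76) and Tyrobp (1.20 and 0.54) were the highest. Cd14, a macrophage and monocyte receptor, was 1.52-fold and 1.85-fold lower, Cd68 1.11-fold and 1.20-fold lower, and Csf1r 1.14-fold and 1.04-fold lower. C1qc, which encodes another chain of C1q, had 0.18 in double-positive cells from spots near the background limits. Its deposited ratios were 1.62 in double-positive and 2.09 in tdTomato-only cells. C1qa, also a C1q chain gene, was above background in the Cy3 channels alone, at least 1.19-fold and 1.15-fold higher. The deposited ratio of C1qa in double-positive cells was 2.27. Cd68, C1qc and C1qa were named after their values were seen. The list's medians were 0.12 and 0.30, with 4 of 10 genes below 0 in double-positive and 3 of 8 in tdTomato-only cells. The authors' deposited ratios placed 6 of 11 and 5 of 10 at 2-fold or more, and C1qb at 4.48 and 4.05. The dendritic cell genes Flt3, Xcr1, Clec9a and Cd209a were not above background in any channel, and Itgax was above it in the Cy3 channels alone, at least 1.60-fold and 1.09-fold higher. The 17 probes of that list summed to 796 and 759 in the EGFP-only channels, 1666 in the double-positive and 1296 in the tdTomato-only channel.

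B and plasma cell markers, of which 5 were measured in double-positive and 4 in tdTomato-only cells, had none past 2-fold. The shares of all genes past 2-fold were 5.44% and 7.34%. Cd79a had -0.17 and -0.12, Cd79b 0.38 and 0.24, and Cd22 0.21 and 0.17. Ms4a1 had 0.34 in double-positive cells and was above background in the Cy3 channel alone of the second array, at least 1.26-fold higher. In the authors' deposited ratios Ms4a1 was past 2-fold, at 2.01 in double-positive and 2.11 in tdTomato-only cells. Cd79a, Cd79b, Cd22 and Mzb1, the others of the list with a deposited ratio in both, lay within 2-fold there. Pax5 was not above background in any channel, and the 7 probes of the list summed to 159 and 157 in the EGFP-only channels, 175 in the double-positive and 180 in the tdTomato-only channel. The part of immune cells in the Ciita ratio was not tested.

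The sorted cells had epithelial markers in every population, with 7 of 10 listed genes measured and medians of 0.26 and -0.04; Epcam, whose spots read 23079 and 23082 in the EGFP-only channels, had -0.55 and -0.64, Vil1 0.86 and 1.10 and Cdx2 -0.43 and -0.28. Lgr5, which should follow the EGFP sort, had 0.26 in double-positive cells, -0.26 with median centring, and -0.89 in tdTomato-only cells. The stem cell markers, Lgr5 included, had medians of -0.49 and -1.08, with Olfm4 at -1.56 and -2.37. All 3 measured Paneth cell markers and all 3 enterocyte markers were at least 2-fold higher in both populations. So were 2 of 4 goblet cell markers in double-positive and 3 of 4 in tdTomato-only cells. Among these Clca1 is the mean of 3 probes, listed on the platform under the symbols Clca3 and Clca1, that disagree. The Clca3 probe read 1499 and 1433 in the EGFP-only channels, 3873 in the double-positive and 43457 in the tdTomato-only channel. The probes listed as Clca1 read lower in Cy3 than in Cy5 on both arrays. The place of Clca1 in these counts thus rests on joining the symbols. Of 23474 spots for genes, 67.0% to 77.1% were above background in a channel.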

How the data were processed

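Total RNA of 3 sorted populations was amplified, dye-coupled and hybridised to 2 two-colour Toray arrays, per the labels' protocols. The authors deposited spot median intensities of both dyes per array, per the file headers, without background subtraction judging from blank spots well above 0, and normalized log2 ratios of the Cy3 over the Cy5 population, per the labels. How the deposited log2 ratios were normalized is not stated. Over the named genes their medians were 0 in double-positive and -0.02 in tdTomato-only cells.

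Intensities were corrected with normexp (offset 50, no local background, since the columns headed as background followed the spots) and normalized by loess within each array, with the 3982 control spots and the quality-marked spots, 2 and 3 probes, at weight 0 (limma 3.58.1, R 4.3.3). A probe was above background past the mean plus 2 SD of 2736 blank spots; a ratio needed this in both channels. The offset shrinks the folds of dim genes. Genes above background in 1 channel have a lower bound, the bright level over the dim probe's level or the lowest level above background, whichever is higher, after loess and Aquantile. Symbols were updated through RefSeq GRCm38.p6, 3947 of them, 12622 being current, 59 ambiguous and 3 unmatched. Of the probes, 16631 had 1 gene, none several, and 6842 no name here.

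With 1 array per comparison no test was made, and genes were counted from 2-fold, a log2 ratio of 1 or -1. The third comparison is the difference of the arrays' ratios. Named were all members, Lgr5, from each of the 6 pathway lists up to 4 genes with the largest ratios and any past 2-fold, from marker lists the defining markers and up to 3 more, and the 5 genes nearest to Cd74 and B2m. Members and lists were chosen with earlier results of these data known. The steps were tested on simulated arrays in which a small set of bright probes was changed, up or down with equal odds. That test does not bear on dim genes or on the choice between loess and median centring. There were 7 alternatives per comparison: the deposited ratios, blank subtraction, median centring, quantile normalization, an offset of 10, a limit of 3 SD, and the brightest probe of a gene. The number of arrays limits the precision.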

Additional observations from a re-analysis of the deposited data

Results flagged for a closer look

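Lgr5 had a log2 ratio of 0.26 in double-positive and -0.89 in tdTomato-only cells against EGFP-only cells, on opposite sides of 0. With median centring the first became -0.26, so that both lay below 0. The medians of genes serving class II molecules were 0.05 and -0.09, which became -0.73 and -0.77 with median centring, -0.32 and -0.49 in the deposited ratios, -0.26 and -0.37 with quantile normalization, and 0.12 and 0.01 with an offset of 10. Those of costimulatory and checkpoint ligands were -0.09 and 0.00, the second barely above 0, and both were above 0 in the deposited ratios, at 0.14 and 0.26, and below 0 with median centring and quantile normalization. Those of epithelial markers were 0.26 and -0.04, both below 0 with median centring, at -0.39 and -0.69, and both above 0 with an offset of 10, at 0.31 and 0.05. The opposite signs of all 4 thus depend on the processing. With 1 array for each population, these differences were not tested.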

How the results depend on the processing

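Of the 7 alternatives, 5 moved the members' values; the stricter background limit and the brightest probe could not, since each member has 1 probe, above the stricter limit too. Ciita was at least 2-fold higher against EGFP-only cells in those 5, with log2 ratios of 3.31 to 4.21 in double-positive and 2.83 to 3.68 in tdTomato-only cells. Of 7 measured members, 6 kept their sign in those 5 in each comparison with EGFP-only cells, B2m being the exception, and 6 in the third, Tapbp being the exception with median centring (0.01). Median centring moved the median of all genes from -0.01 to -0.21 in both comparisons with EGFP-only cells; relative to that median, Cd74 stood at -0.86 and -1.18 there and H2-Aa at -0.95 and -1.21. The count of members at least 2-fold lower, 0 as reported, became 1 in double-positive and 2 in tdTomato-only cells in the deposited ratios, and 2 and 2 with median centring.

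In double-positive cells, genes serving class II molecules went from 2 higher and 0 lower to 1 and 1 with median centring, class II promoter factors from 0 to 1 higher in the deposited ratios, and class I peptide supply from 0 to 3 lower with median centring. Interferon genes at least 2-fold higher went from 1 to 5 in the deposited ratios, 6 with the blank mean subtracted and 2 with an offset of 10, and those lower from 0 to 2 with median centring. In tdTomato-only cells, genes serving class II molecules went from 1 to 2 higher in the deposited ratios, with blank subtraction and with an offset of 10. Class II promoter factors went from 0 to 1 higher in the deposited ratios and with blank subtraction, and from 0 to 1 lower in these, with median centring and with an offset of 10. Class I-like genes went from 0 to 1 lower in the deposited ratios and with blank subtraction. Class I peptide supply went from 0 to 1 higher with blank subtraction and an offset of 10, and from 0 to 1 lower with median centring and in the deposited ratios. Interferon genes went from 7 to 13, 12 and 4 higher in the deposited ratios, with blank subtraction and with median centring, and from 0 to 1 lower in the deposited ratios, with median centring and with quantile normalization. In the third comparison, class I-like genes went from 0 to 1 lower in the deposited ratios and with blank subtraction, and interferon genes from 0 to 4, 4 and 3 higher in the deposited ratios, with blank subtraction and with an offset of 10. Over all genes, 601 were at least 2-fold higher and 40 lower in double-positive than in EGFP-only cells, which became 1516 and 435 in the deposited ratios, 1201 and 362 with blank subtraction, 364 and 740 with median centring, 516 and 107 with quantile normalization, 902 and 101 with an offset of 10. Likewise, 700 were at least 2-fold higher and 135 lower in tdTomato-only than in EGFP-only cells, which became 1595 and 864 in the deposited ratios, 1242 and 571 with blank subtraction, 407 and 850 with median centring, 580 and 252 with quantile normalization, 1008 and 263 with an offset of 10. The cause of these changes was not tested.

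No paired analysis was possible because each population was 1 pooled sort on 1 array per comparison.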
